A study of Homo sapiens with 6 samples.

Results

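The genes of the NF-kB transcription factor subunits and of their best known inhibitors were measured in the human rhabdoid tumour cell line A204 after exposure to the histone deacetylase (HDAC) inhibitor SAHA (vorinostat). The 10 members were taken by name. They are the subunit genes NFKB1, NFKB2, REL, RELA and RELB, and the inhibitor genes NFKBIA, NFKBIB, NFKBIE, BCL3 and TNFAIP3. All 10 were among the 18417 genes measured, each by a single probe set that names no other gene. The 3 SAHA arrays came from A204 cells exposed to SAHA for 12 h, and the 3 control arrays from A204 cells given DMSO according to the treatment protocol, although another label gives their treatment as none. The labels print the SAHA dose as 10 with an incomplete unit, so no concentration is given. Both groups were grown in DMEM with fetal bovine serum, and no stimulus of the NF-kB pathway is named. A rhabdoid tumour is a childhood cancer that typically lacks the SWI/SNF subunit SMARCB1. All arrays represent this single line. Separate cultures are not named in the labels, so p-values reflect the spread between arrays alone, which may be technical.

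NF-kB proteins bind DNA as dimers. NFKB1 and NFKB2 encode the precursors p105 and p100, which are processed to p50 and p52, while RELA (p65), REL (c-Rel) and RELB carry the transactivation domains. In resting cells IkB proteins hold the dimers in the cytoplasm until the IkB kinase (IKK) complex marks them for destruction. In the non-canonical branch the kinase NIK, encoded by MAP3K14, drives the processing of p100. Several members are themselves transcribed under NF-kB, which makes them a feedback circuit. RelA is also acetylated by p300 and CBP and deacetylated by HDAC3, which connects the factor to the enzymes that SAHA inhibits.

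The sequences before the transcription starts of members are shown first, because published kB sites there are the basis of that feedback. They were read from RefSeq (GRCh38.p14) for 8 of the 10 members, all but RELB and NFKBIE, as the 250 bases before each of 13 annotated starts. Both strands were searched for the consensus kB decamer GGGRNNYYCC, where R is A or G, Y is C or T and N is any base. Capitals mark matched bases and run together where matches overlap. The starts shown are those with a match, for the members with the largest changes, NFKB1, NFKB2 and TNFAIP3, and for NFKBIA, the classical feedback inhibitor. NFKB1 start 2 and NFKB2 start 1 held no match and are not printed. The NFKB1 window lies at chr4:102501109-102501358 (plus strand), those of NFKB2 starts 2 and 3 at chr10:102394328-102394577 and chr10:102395455-102395704 (plus strand), that of TNFAIP3 at chr6:137867009-137867258 (plus strand) and that of NFKBIA at chr14:35404750-35404999 (minus strand). Each is written 5′ to 3′ in the direction of the gene.
NFKB1: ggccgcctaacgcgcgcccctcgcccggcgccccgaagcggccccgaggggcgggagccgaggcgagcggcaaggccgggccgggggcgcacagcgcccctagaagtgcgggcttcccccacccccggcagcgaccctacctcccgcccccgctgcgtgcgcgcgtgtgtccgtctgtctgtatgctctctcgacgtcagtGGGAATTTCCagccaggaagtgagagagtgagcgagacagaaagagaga
NFKB2 start 2: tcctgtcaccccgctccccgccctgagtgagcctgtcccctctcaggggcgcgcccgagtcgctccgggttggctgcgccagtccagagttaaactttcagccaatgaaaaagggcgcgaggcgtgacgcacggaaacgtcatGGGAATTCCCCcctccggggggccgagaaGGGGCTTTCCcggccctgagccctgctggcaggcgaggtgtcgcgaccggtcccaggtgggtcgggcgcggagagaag
NFKB2 start 3: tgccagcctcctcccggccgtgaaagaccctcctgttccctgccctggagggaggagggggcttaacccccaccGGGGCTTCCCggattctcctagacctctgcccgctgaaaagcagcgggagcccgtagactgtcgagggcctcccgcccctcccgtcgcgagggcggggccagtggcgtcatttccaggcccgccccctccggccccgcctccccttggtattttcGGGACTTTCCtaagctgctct
TNFAIP3: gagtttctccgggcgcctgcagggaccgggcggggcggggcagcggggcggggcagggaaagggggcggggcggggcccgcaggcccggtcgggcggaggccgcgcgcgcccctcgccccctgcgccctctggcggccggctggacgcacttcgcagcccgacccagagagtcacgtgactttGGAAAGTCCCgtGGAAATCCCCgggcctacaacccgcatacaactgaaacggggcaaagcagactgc
NFKBIA: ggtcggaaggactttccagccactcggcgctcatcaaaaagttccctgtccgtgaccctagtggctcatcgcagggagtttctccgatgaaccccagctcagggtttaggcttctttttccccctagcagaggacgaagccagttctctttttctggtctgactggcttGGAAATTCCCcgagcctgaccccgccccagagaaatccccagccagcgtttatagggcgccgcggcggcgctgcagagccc

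NFKB1 had 1 match, GGGAATTTCC, at 49 to 40 bases before its first annotated start. NFKB2 had 3 matches before its annotated start 2 and 2 before start 3, the last of which, GGGACTTTCC, ends 12 bases before the start. TNFAIP3 had 2 matches, GGAAAGTCCC and GGAAATCCCC, which match when read on the other strand, and NFKBIA had 1, GGAAATTCCC, also on the other strand. REL (GGGAAATTCC) and NFKBIB (GGGAATTTCC) each had a pair of overlapping matches. A match was thus present in 6 of the 8 members with a window (75%), against 11.8% of the 27305 genes in the promoter table. By windows, the share was 53.8% of 13 against 9.96% of 35116. The median GC content was 69.2% in the members' windows and 58% in all windows. RELA and BCL3 had no match in these windows. These matches are letters in a sequence, and binding was not measured. The consensus was derived in part from such genes, so the share among them is a description.

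**Figure D1:**
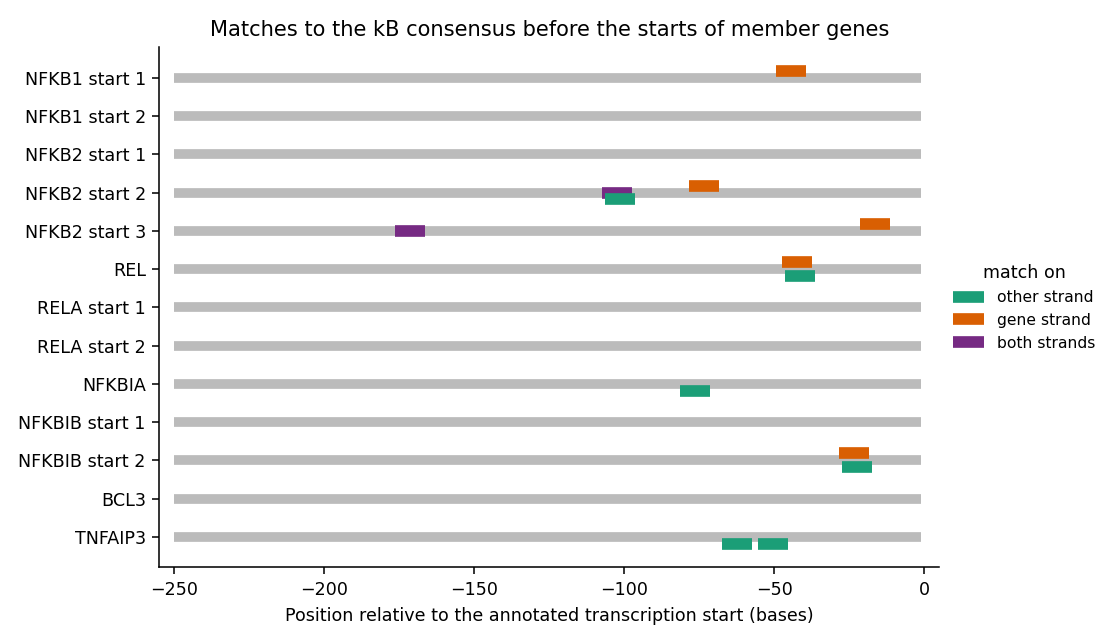
Matches to the kB consensus decamer (coloured blocks) in the 250 bases before each of 13 annotated starts of 8 member genes (grey bars), with the position in bases relative to the start on the x axis. Orange blocks match on the gene's strand, green blocks on the other strand and purple blocks on both. Of the 8 genes, 6 hold a match, and RELA and BCL3 hold none.

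Levels are the deposited RMA signals (a standard background correction, normalization and summary of array probes) in log2 units, and a change is the SAHA mean minus the control mean. A gene was called when its adjusted p was under 0.05 in limma, a moderated linear model fitted to all genes at once with Benjamini-Hochberg adjustment. Of the 10 members, 9 were called, 6 higher and 3 lower in SAHA. The background was high in this experiment: 60% of all genes were called, 31.1% higher and 28.9% lower. The 3 SAHA values lay entirely on one side of the 3 control values for all 10 members, and for 65.4% of all genes. Changes of at least 2-fold were called for 2 members, NFKB1 and NFKB2, and for 11.3% of all genes. The median absolute change was 0.52 over the members and 0.24 over all genes, and the median signed change was 0.23 over the members and -0.0027 over all genes. The members were chosen with earlier results of these data known, and nothing particular to them is read from these shares. In RNA of a whole culture, a change in the share of cells that express a gene and a change in RNA per cell cannot be told apart.

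The precursor genes moved in opposite directions. NFKB1 was at 8.29, 8.09 and 8.13 in the SAHA arrays, against 9.95, 10.06 and 9.95 in the control arrays. It was therefore clearly lower on every SAHA array, with a gap far wider than the spread within a group. The change was -1.81 (95% interval -1.96 to -1.66), a 3.51-fold lower level (limma adjusted p = 1.41e-07). NFKB2 was at 10.21, 10.14 and 10.18 in SAHA, against 8.77, 8.86 and 8.63 in control. All SAHA arrays were above all control arrays, by 1.42 on average (95% interval 1.28 to 1.57), or 2.68-fold (adjusted p = 4.24e-07). Of all genes, 2.94% changed by at least as much as NFKB1 and 5.43% by at least as much as NFKB2, in either direction.

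The other subunit genes changed less. RELA, the p65 partner of the canonical dimer, was at 10.79, 10.77 and 10.78 in SAHA, against 10.25, 10.29 and 10.19 in control. This 1.45-fold rise (0.53, 95% interval 0.43 to 0.63, adjusted p = 1.3e-05) separated the groups fully. REL, which encodes c-Rel, a subunit best known from lymphoid cells, was at 9.71, 9.74 and 9.68 in SAHA, against 9.99, 10.04 and 10.03 in control. It fell by 0.31 on the log2 scale (adjusted p = 0.000284), a small shift with very tight replicates. RELB, the usual partner of p52, was at 8.16, 8.23 and 8.21 in SAHA, against 8.09, 7.96 and 7.96 in control. The groups did not overlap, but the lowest SAHA array and the highest control array lay close together. The rise of RELB was 0.20 (95% interval 0.081 to 0.32, adjusted p = 0.00968) and its call ended when arrays were centred on housekeeping genes (0.12, adjusted p = 0.0615). That reference was the median of 8 measured genes on each array. The middle levels were those of SDHA (0.14, the 1 gene called higher) and YWHAZ (0.013, not called). The 2 genes called lower, HPRT1 (-0.69) and PPIA (-0.46), had the lowest levels of the 8 and so did not set the median.

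**Figure D2:**
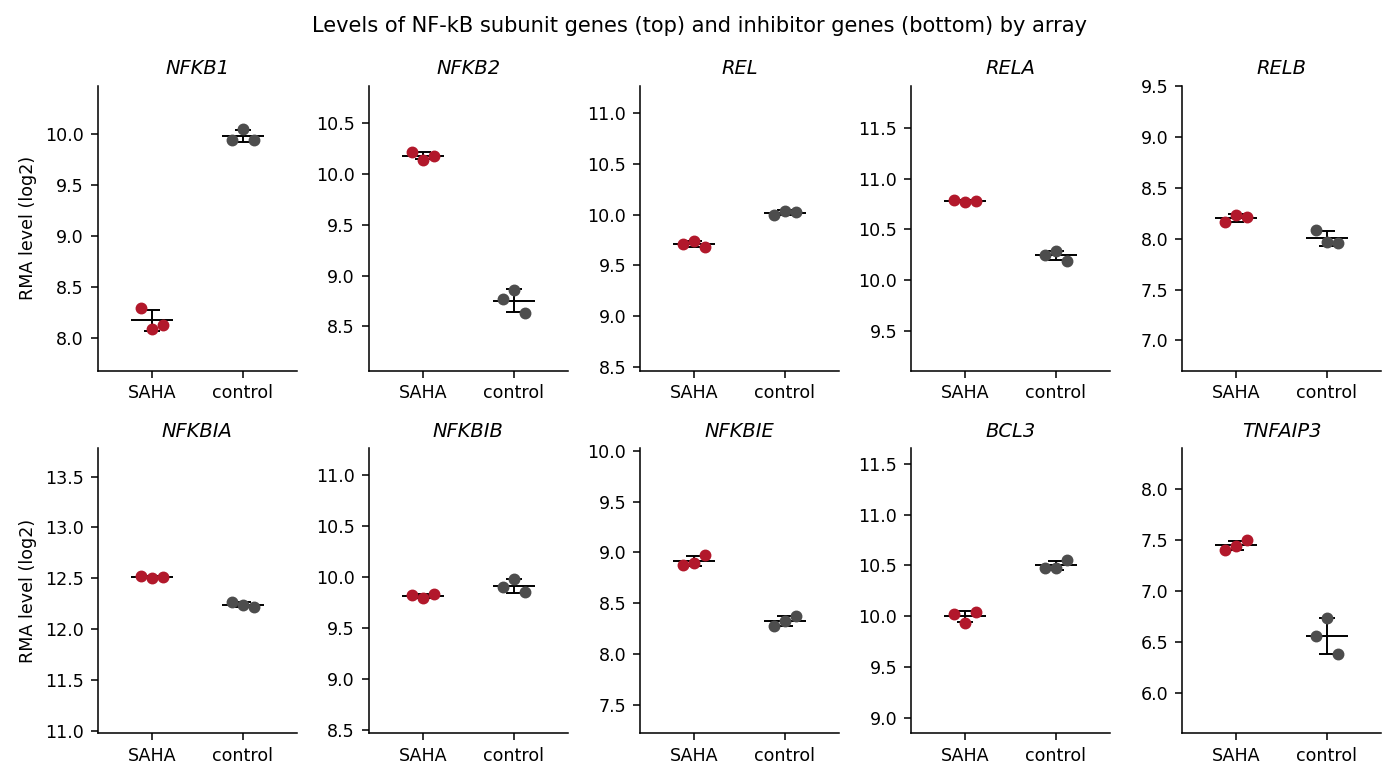
RMA level (log2, y axis) of each member on the 3 SAHA arrays (red) and the 3 control arrays (grey), with the group mean and SD as black bars. Every panel spans the same number of log2 units around its own midpoint, so that gaps but not heights can be compared between panels. The gaps of NFKB1 (-1.81) and NFKB2 (1.42) are the widest, and that of NFKBIB (-0.098) is the narrowest.

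The 3 classical IkB genes did not move as a block. NFKBIA encodes IkB alpha, the inhibitor that is degraded and resynthesised most quickly, and was at 12.52, 12.50 and 12.52 in SAHA, against 12.27, 12.24 and 12.22 in control. It rose by 0.27 (95% interval 0.18 to 0.36, adjusted p = 0.000467), with an SD of 0.011 among SAHA arrays and 0.023 among control arrays. NFKBIE, which encodes IkB epsilon, was at 8.88, 8.90 and 8.97 in SAHA, against 8.28, 8.32 and 8.38 in control. Its rise of 1.51-fold (0.59, 95% interval 0.48 to 0.70, adjusted p = 1.29e-05) exceeded the spread on both sides. NFKBIB, which encodes IkB beta, was at 9.82, 9.79 and 9.83 in SAHA, against 9.90, 9.98 and 9.85 in control. It was the member that did not pass the test (-0.098, 95% interval -0.21 to 0.013, adjusted p = 0.115), although no SAHA array reached the lowest control array. It passed when arrays were centred on housekeeping genes (-0.18, adjusted p = 0.0127).

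The remaining regulators moved apart as well. BCL3 encodes an atypical, nuclear IkB protein that binds p50 and p52 homodimers and can activate as well as repress transcription. It was at 10.02, 9.94 and 10.04 in SAHA, against 10.48, 10.48 and 10.55 in control, and so lower on every SAHA array. The change was -0.50 (95% interval -0.61 to -0.39, adjusted p = 3.3e-05). TNFAIP3 encodes A20, a ubiquitin-editing enzyme that shuts off signalling upstream of IKK. It was at 7.40, 7.45 and 7.50 in SAHA, against 6.56, 6.74 and 6.38 in control, which was the widest scatter of any member within a group (SD 0.18). TNFAIP3 rose 1.86-fold (0.89, 95% interval 0.69 to 1.09, adjusted p = 3.61e-05). No background call was available, so where its control level is background the fold is a lower bound.

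**Figure D3:**
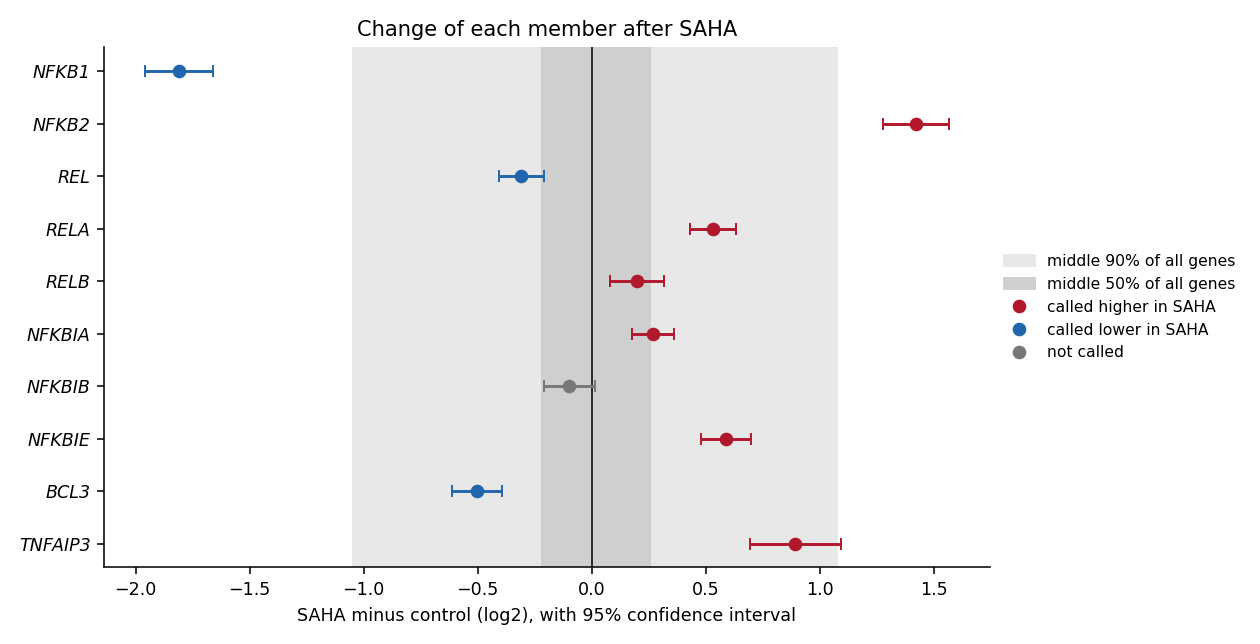
Change of each member (SAHA minus control, log2, x axis) with its 95% confidence interval from limma, in red where called higher, blue where called lower and grey where not called. Shading marks the middle 90% (light) and the middle 50% (dark) of the changes of all 18417 genes. NFKB1 and NFKB2 lie outside the light band on opposite sides.

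The genes that carry signals to NF-kB were then listed by role. Of 24 measured genes of the IKK complex and its signal transducers, 14 rose, 8 fell and 2 did not pass (91.7% called, against 60% of all genes), with a median change of 0.21. Most of these genes are bright. Of the 21 at or above the median gene level of 8.14, 13 rose and 6 fell, beside 83.1% called over all such genes. The IKK subunit genes differed among themselves. IKBKB, the kinase subunit of the canonical branch, fell to 9.23 ± 0.04 in SAHA, against 10.11 ± 0.08 in control (SD, n = 3, change -0.88, adjusted p = 2.38e-06). CHUK, the IKK alpha kinase that also acts in the non-canonical branch, rose by 0.32. IKBKG, the NEMO scaffold, rose by 0.17, and its call ended with centring on housekeeping genes (0.096, adjusted p = 0.0911).

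Upstream of p100 processing, MAP3K14 (NIK) was at 10.27, 10.29 and 10.21 in SAHA, against 9.14, 9.27 and 9.11 in control. All SAHA arrays were higher, and the rise was 2.12-fold (1.08, adjusted p = 8.97e-07). TRAF3, the adaptor that targets NIK for degradation in resting cells, was at 8.07, 7.97 and 8.16 in SAHA, against 9.30, 9.28 and 9.15 in control. It fell by 1.18 on the log2 scale (adjusted p = 1.26e-06), again without overlap. IRAK1, a kinase of the interleukin-1 and Toll-like receptors, changed by -1.06. The 3 subunits of the linear ubiquitin ligase complex, RNF31, RBCK1 and SHARPIN, all rose, by 0.85, 0.45 and 0.14. A second, dimmer RNF31 probe set changed by 0.12 and did not pass (adjusted p = 0.0615). TAB3, an adaptor of the kinase TAK1, rose by 0.56. TAB1, RIPK1, TRAF2 and IRAK4 were not analysed here.

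Of 19 receptor and ligand genes, 4 rose, 4 fell and 11 did not pass (42.1% called, against 60%). Only 7 of the 19 lay at or above the median gene level of 8.14. Of those, 1 rose and 3 fell, beside 83.1% called over all such genes. None of the 7 measured ligand genes (TNF, LTA, LTB, IL1A, IL1B, TNFSF11 and TNFSF13B) passed limma's test, with changes from -0.16 to 0.088 and a smallest adjusted p of 0.0712. TNFSF13B was the only one of these 7 with an unadjusted p under 0.05 (limma). TNF itself was at 6.42 ± 0.09 in SAHA and 6.41 ± 0.06 in control (SD, n = 3 each, adjusted p = 0.947). IL1RAP, the shared coreceptor of interleukin-1 signalling, had the largest change of this list and rose 3.55-fold, to 9.46 ± 0.04 in SAHA, against 7.63 ± 0.05 in control. IL1R1, the ligand-binding receptor, and TNFRSF1B, the second TNF receptor, rose by 0.42 and 0.30. TLR3, a sensor of double-stranded RNA, changed by -0.99, TNFRSF1A, the main TNF receptor, by -0.37 and TNFRSF12A, the receptor of TWEAK, by -0.28.

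Of 16 further IkB genes and negative regulators, 9 rose, 4 fell and 3 did not pass (81.3% called, against 60%), with a median change of 0.17. Of the 13 at or above the median gene level, 8 rose and 3 fell, beside 83.1% called over all such genes. NFKBIZ, an atypical nuclear IkB like BCL3, rose by 0.96 (adjusted p = 6.29e-07), whereas NFKBID, another nuclear IkB, changed by -0.41. CYLD, a deubiquitinase that opposes IKK activation, rose by 0.78 and TRAFD1, a feedback regulator of Toll-like receptor signalling, by 1.03. TNIP1, which encodes the A20 partner ABIN-1, changed by -0.82, opposite to TNFAIP3. PDLIM2, a ubiquitin ligase for nuclear RelA, changed by -0.45.

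All 9 measured genes for enzymes that acetylate or deacetylate RelA or related substrates were called, 5 higher and 4 lower, against 60% of all genes (31.1% higher and 28.9% lower). Of the 8 at or above the median gene level, 4 rose and 4 fell, beside 83.1% called over all such genes. HDAC3 was at 12.24 ± 0.03 in SAHA and 11.34 ± 0.07 in control (SD, n = 3 each). SIRT2, a deacetylase of the class that SAHA does not inhibit, rose by 1.30 (adjusted p = 2.06e-07), while its relative SIRT1 changed by -0.48. CREBBP, which encodes CBP, changed by -0.74 and KAT2A by -1.16. The acetyltransferase genes EP300, which encodes p300, and KAT2B went the other way and rose by 0.33 and 0.54. HDAC1 rose by 0.39 and HDAC2 changed by -0.27. These are transcript levels, and neither acetylation of RelA nor enzyme activity was measured.

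**Figure D4:**
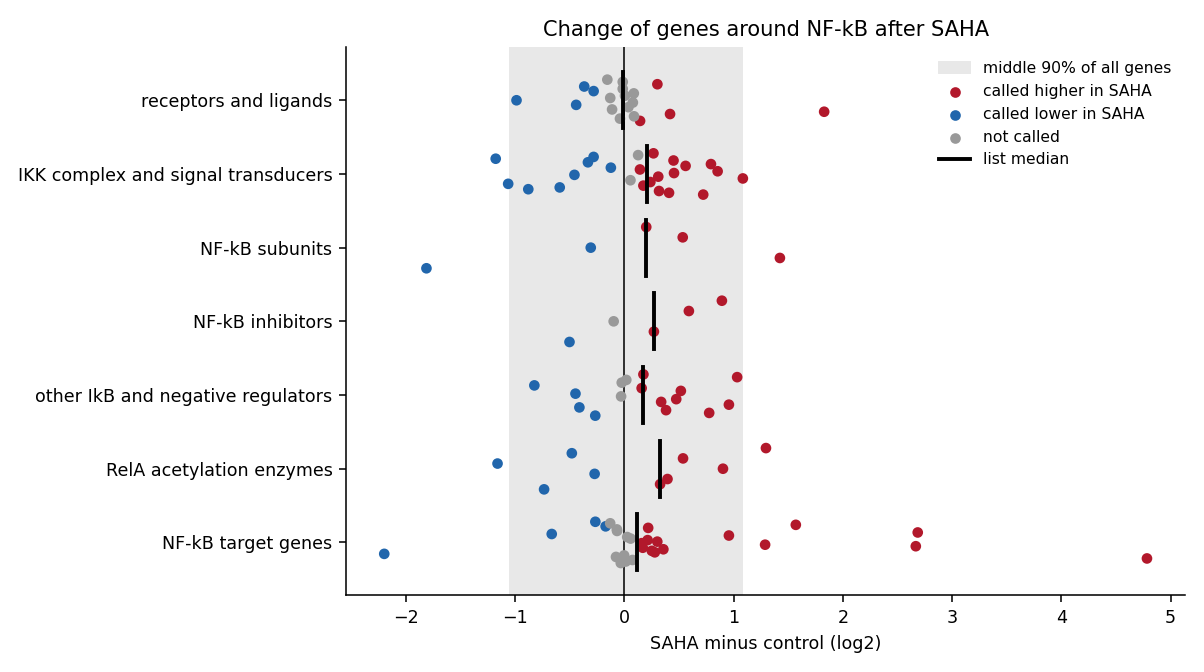
Change of each measured gene (SAHA minus control, log2, x axis) in 7 groups around NF-kB, one point a gene, in red where called higher, blue where called lower and grey where not called. NFKBIZ belongs to the negative regulators and to the target genes and is drawn in both groups. Black bars are group medians and the shaded band is the middle 90% of all genes. Most receptor and ligand genes sit near 0, with IL1RAP at 1.83 as the exception on the right.

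Genes known from textbooks as NF-kB targets were split. Of 28 measured, 14 rose, 4 fell and 10 did not pass, so that 64.3% were called, close to the 60% of all genes. NFKBIZ is in this list and in that of the negative regulators, and is counted among the risen genes of both. The median change was 0.12, and the median absolute change was 0.22 against 0.24 over all genes. A group of 5 targets rose at least 2-fold. CXCL8, the neutrophil chemokine interleukin-8, was at 12.30, 12.29 and 12.33 in SAHA, against 9.69, 9.42 and 9.81 in control, 6.35-fold higher (adjusted p = 1.25e-07). PTGS2, which encodes cyclooxygenase-2, was at 9.04, 8.92 and 9.02 in SAHA, against 6.07, 6.47 and 6.40 in control, 6.43-fold higher (adjusted p = 1.87e-07). ICAM1, a leukocyte adhesion molecule, was at 8.15, 8.17 and 8.10 in SAHA, against 6.96, 6.80 and 6.79 in control, 2.44-fold higher. The groups of these 3 genes lay well apart. The other two were CCL20, a chemokine for CCR6-bearing cells (4.78 higher, from a mean control level of 4.99), and TNFRSF9, the costimulatory receptor 4-1BB (1.57 higher, named after its value was seen).

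Other targets of the same list fell or did not pass. CFLAR, which encodes the caspase-8 inhibitor cFLIP, was at 7.86, 7.65 and 7.83 in SAHA, against 10.01, 9.97 and 9.97 in control, 4.59-fold lower (adjusted p = 4.89e-08). Its second probe set was also lower, by -2.80. PLAU, the urokinase gene, changed by -0.67 and TNFAIP2 by -0.17. CCL2, a monocyte chemokine, was at 6.09 ± 0.02 in SAHA and 6.02 ± 0.04 in control (SD, n = 3 each, adjusted p = 0.183). IL6 was at 5.69, 5.92 and 5.95 in SAHA, against 5.44, 5.44 and 5.78 in control, and these groups overlapped. Its call (0.30, adjusted p = 0.0395) depended on single arrays: leaving out SAHA replicate 2 gave adjusted p = 0.113, SAHA replicate 3 gave 0.118, control replicate 1 gave 0.127 and control replicate 2 gave 0.125. It was also lost with centring on housekeeping genes (0.105) and with the unmoderated test (0.145). Over 17 alternatives its adjusted p ran from 0.00405 to 0.145. The kB consensus was found before 15 of the 24 measured targets with a window, against 11.8% of all genes with one. By windows, over all 26 listed targets with one, the share was 44.7% of 38, against 9.96% of 35116. These genes were listed as known targets, so the share is a description, as for the members. The consensus was found before 9 of 13 targets called higher, 2 of 4 called lower and 4 of 7 not called. Of the 6 targets called with at least 2-fold change, 3 held it (CCL20, CFLAR and TNFRSF9). Sites that depart from this decamer or lie outside the 250 bases were not searched for. A gene without a match, such as CXCL8, PTGS2 or ICAM1, may therefore still have a kB site. CSF2 and BIRC3 were not analysed here.

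**Figure D5:**
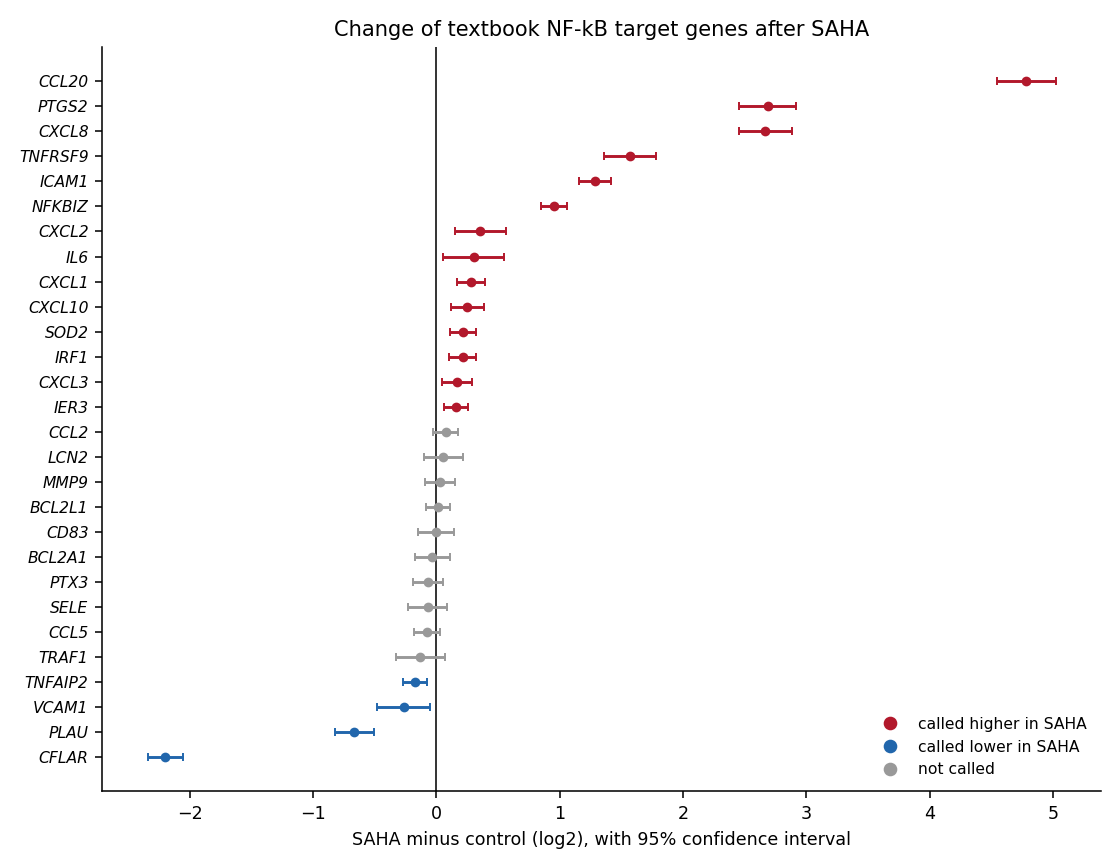
Change of 28 textbook NF-kB target genes (SAHA minus control, log2, x axis) with 95% confidence intervals from limma, ordered by size. Red points were called higher, blue lower and grey not called. CCL20, PTGS2 and CXCL8 stand at the top, CFLAR stands at the bottom, and 10 genes were not called.

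Across all genes, 5735 were called higher and 5314 lower. Array levels correlated at 0.9965 to 0.998 within groups and at 0.9728 to 0.9738 between groups (Pearson, across probe sets, which are not independent replicates), and no array stood apart. Among markers of the cell line, the mesenchymal intermediate filament gene VIM was at 12.63 ± 0.02 in SAHA and 12.81 ± 0.03 in control (SD, n = 3 each), and the keratin gene KRT8 at 13.48 ± 0.02 in SAHA and 13.55 ± 0.01 in control. Rhabdoid tumours typically express both. Other markers of these lists moved further. Of 6 mesenchymal markers 3 rose, 2 fell and 1 did not pass, with FN1 at 3.25 and COL1A2 at 1.39, and their summed linear signal was 16098 to 16390 in SAHA and 13597 to 14025 in control. Of 9 epithelial and endothelial markers 3 rose, 3 fell and 3 did not pass, with KRT19 at 0.80 and CDH5 at -2.19, and their sum was 27143 to 27636 in SAHA and 33058 to 33814 in control. Bright genes lead a linear sum, and CDH5 was at 10.54 in SAHA and 12.73 in control, so this sum does not show a fall across the list. Leukocytes express much of the NF-kB pathway. Of 9 blood cell markers 7 did not pass and 2 fell, CSF1R and CD79A. Their summed linear signal was 556 to 561 in SAHA and 876 to 952 in control, and without CSF1R it was 391 to 406 in SAHA and 410 to 445 in control. PTPRC, the pan-leukocyte marker, was at 4.08 ± 0.12 in SAHA and 4.05 ± 0.07 in control (SD, n = 3 each). RMA values have no true zero, and the part of these markers in the results above was not tested.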

How the data were processed

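Trizol-extracted total RNA was hybridised to Affymetrix whole-transcript arrays, 3 SAHA and 3 control, per the labels' protocols. The deposited intensity of each probe set was made by the authors with RMA, per the submitters' processing notes. Its software and version are not stated here. The values lay between 6.557 and 20338 on a linear scale, so log2 was taken. Scanner files were not used, so no background call was made and the number of arrays limits the precision.

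Of 33252 probe sets, 19460 named 1 gene, 1754 several and 12038 none. Symbols were updated through Entrez identifiers (19429 matched) with RefSeq genes of GRCh38.p14. Among several probe sets of a gene, the 1 with the highest 6-array mean was used. All genes were fitted with limma 3.58.1 in R 4.3.3 (lmFit, eBayes, no covariates, two-sided, Benjamini-Hochberg over 18417 genes, threshold 0.05), which was checked on simulated data. All adjusted p-values are limma's.

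Members and gene lists were chosen with earlier results of these data known. Named genes are all members and, per list, the 3 higher and the 3 lower called genes with the smallest adjusted p, plus 10 fixed genes. Others were named after their values were seen. The alternatives were 4 scalings, 2 uses of probe sets, 2 level filters, 2 forms of moderation, array weights, the replicate block and each array left out. Same-numbered arrays deviated from their group means with correlations of -0.03, -0.17 and -0.0042. These gave no sign of pairing by number, but with 3 arrays in a group they cannot settle it.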

Additional observations from a re-analysis of the deposited data

How the results depend on the processing

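Over 18 alternatives, 8 of the 10 members kept their direction and their side of the threshold under each one that measured them, and no member changed sign. NFKB1 ranged from -1.89 to -1.77 and NFKB2 from 1.35 to 1.48. The exceptions were RELB and NFKBIB, both with centring on housekeeping genes, which moved the median of all genes to -0.08. Of 36 other named genes, 32 kept both. TNF, which did not pass in any setting, changed sign with a second quantile normalization (-0.030), centring on housekeeping genes (-0.072), and without control replicate 3 (-0.024) or SAHA replicate 3, and ranged from -0.03955 to 0.04711 with each array left out. CCL2 did so with centring on housekeeping genes (-0.0030). The calls of IKBKG and IL6 ended as given above. Leaving out genes under the median level removed RELB and TNFAIP3 and left 8 members, of which 4 were called higher and 3 lower, while 83.1% of the remaining genes were called. Under that filter 1 of 7 receptor and ligand genes was called higher, and 5 of 8 target genes were called higher and 2 lower, because fewer genes were tested. With the replicate block, 6 members were called higher and 3 lower, and the block changed no member's call. Pairing by number is not supported by the labels. Dim genes such as CCL20, PTGS2 and TNFAIP3 in control arrays have no background call, which limits what their folds mean.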

Other observations

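The nearest measured protein-coding neighbours of the members, in the RefSeq gene order, gave 20 genes, of which 12 were called (8 higher and 4 lower), the same share as the 60% of all genes. The fall of NFKB1 stood between rises of both neighbours. SLC39A8, a zinc transporter gene, was at 8.69 ± 0.04 in SAHA and 7.94 ± 0.12 in control (SD, n = 3 each, change 0.75), and MANBA, a lysosomal mannosidase gene, rose by 0.31. Beside NFKB2, GBF1, a Golgi exchange factor gene, rose by 0.51, while PSD was at 0.090 and did not pass. NFKBIB, the member that did not pass, lies next to SIRT2 (1.30) and SARS2, a mitochondrial seryl-tRNA synthetase gene (-0.58), each of which passed the test. The neighbours of RELA were PCNX3 (0.40) and KAT5, which encodes the acetyltransferase TIP60 (-0.41). Neither measured neighbour of NFKBIA or NFKBIE passed the test. These genes were named after their values were seen, and all adjusted p-values behind these calls are limma's over all genes.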
